A study of Mus musculus with 24 samples.

Results

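Expression of glutathione synthesis and recycling genes was followed in cultured mouse macrophages grown from bone marrow (BMDMs), which received medium taken from lung cancer cells and the NRF2 activator CDDO-Me or its vehicle. The 10 genes were chosen by name, for their place in the pathway, from 35770 gene names listed in each library. These genes were chosen with earlier results of these data known. They cover cystine uptake (Slc7a11 and Slc3a2), glutathione synthesis (Gclc, Gclm and Gss), recycling (Gsr), peroxide reduction (Gpx1 and Gpx4) and gamma-glutamyl degradation (Chac2 and Ggct). RNA was measured in 24 libraries, 3 in each of 8 groups. All macrophages came from the marrow of C57BL/6 mice and were differentiated with M-CSF at 20 ng/mL. They then received either control media that had held no cancer cells or conditioned media (CM) from LL2 cells, a murine Lewis lung carcinoma line. The LL2 cells were WT, KEAP1 KO or NRF2 KO. The knockout was thus in the cancer cells that made the medium, while the macrophages carried both genes in every group. Conditioning lasted 48 h, the harvested media made up 75% of the culture medium, and the macrophages were exposed for 24 h together with vehicle or 100 nM CDDO-Me. Groups are written here as medium and treatment, for example WT CM/CDDO-Me. The study's methods call the 3 samples of each group independent but do not say whether they came from separate mice or batches of medium. All library names of a knockout share the same stem, so separate knockout lines are not shown. The p-values therefore measure the spread between these samples, not a spread between knockout lines.

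Glutathione is a tripeptide of glutamate, cysteine and glycine, and its thiol makes it the main small reductant of the cell. Cystine enters through system xc-, built from the transport chain Slc7a11 and its partner chain Slc3a2, and is reduced to cysteine. Glutamate-cysteine ligase, with the catalytic subunit Gclc and the modifier subunit Gclm, makes the dipeptide, and glutathione synthetase (Gss) adds glycine. Glutathione peroxidases spend glutathione on peroxides, and glutathione reductase (Gsr) uses NADPH to turn the oxidised form back into glutathione. Several of these genes are textbook targets of NRF2, the transcription factor that KEAP1 holds in check and that electrophiles such as CDDO-Me release. In macrophages the pathway is known for protecting the cells from their own oxidants.

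NRF2 with a small MAF partner binds the antioxidant response element, and ATF4 binds the amino acid response element. Because several of the 10 genes rose together, their promoters were searched for the core letters of both elements on both strands. The RefSeq windows, on GRCm38.p6, ran from 250 bases before to 50 after each transcription start. Windows were matched for 8 of the 10 genes, the entries for Gclc and Gsr being missing. The letters TGACNNNGC occurred in the windows of Gclm and Ggct, and in 12.39% of all 32851 windows. The letters TGATGNAA occurred in the window of Slc7a11 alone among the 8, at 2 places, and in 3.97% of all windows. The stretches of 60 bases around 1 match of each gene are shown because these are the members with a match, and their responses to the drug are described below. The capitals mark the match, which in Gclm and Ggct lies on the opposite strand and so reads in reverse complement.
Gclm (chr3:122245398-122245457, plus strand): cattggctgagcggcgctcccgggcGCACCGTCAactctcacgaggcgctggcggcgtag
Ggct (chr6:54993007-54993066, minus strand): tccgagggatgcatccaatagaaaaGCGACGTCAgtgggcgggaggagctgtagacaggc
Slc7a11 (chr3:50443645-50443704, minus strand): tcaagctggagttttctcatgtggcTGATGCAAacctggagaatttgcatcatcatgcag
The matches shown began 134 bases before the start in Gclm, 174 before it in Ggct and 66 before it in Slc7a11. Ggct held a second match to the antioxidant letters on its own strand, TGACGCTGC, from base 5 to base 13 counted from the start. The second Slc7a11 match lay on the opposite strand, 47 bases before the start. The Ggct match overlaps the letters TGACGTC of a cyclic AMP response element. A match describes the letters in the window and is not evidence of binding.

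Values are TPM, the length-corrected share of a transcript in its library, so levels of different genes can be set side by side. The study's methods give only an average read depth over the libraries, and the depth of each library cannot be read from TPM, which sum to the same total whatever the number of reads. Differences are on the log2(scaled TPM + 1) scale, which understates the change of low genes, and were tested with limma across the 13661 genes with more than 1 TPM in at least 3 libraries. A gene was called at a Benjamini-Hochberg adjusted p under 0.05 over all genes tested. All 10 genes passed this filter.

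Replicate 3 of both NRF2 KO CM groups stood apart from the rest. These libraries had 15702 genes above 0 TPM with vehicle and 16299 with CDDO-Me, against 17817 to 18993 in the other 22 libraries. Gpx4 stood at 196 TPM in NRF2 KO CM/vehicle replicate 3, against 614 and 627 TPM in the other two. Under CDDO-Me replicate 3 was at 350.2 TPM, against 575 and 581 TPM. Gss was likewise low in replicate 3 with vehicle, at 6.71 TPM against 14.1 and 18.7 TPM, while Gclm reached 137 TPM against 68.2 and 80.0 TPM. Many calls and differences of the 10 genes that use these libraries, though not all, are given with and without both of them. Because all libraries share a single estimate of the spread, leaving them out also lowered the standard errors of comparisons that do not use them.

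The label was checked on marker genes. All 9 macrophage markers exceeded 1 TPM in at least 1 library, and their summed level ran from 15330 to 38910 TPM, led by Lyz2. Under CDDO-Me the sum was 15330 to 18570 TPM in WT CM, 17690 to 18500 TPM in KEAP1 KO CM, 21940 to 25380 TPM in media and 28950 to 38910 TPM in NRF2 KO CM, so WT CM and KEAP1 KO CM lay below the others. With vehicle it was 17670 to 18320, 16990 to 20850, 22610 to 23220 and 23950 to 27440 TPM in the same order, with the same division. The 9 fibroblast markers were also present, led by Col1a2, with sums from 222 to 2700 TPM. Their sum was 877, 1247 and 651 TPM in WT CM/vehicle BMDMs and 447, 693 and 258 TPM in WT CM/CDDO-Me BMDMs. It was 1400, 1732 and 951 TPM with KEAP1 KO CM/vehicle, and 773, 926 and 222 TPM with KEAP1 KO CM/CDDO-Me. In media it was 1617, 1754 and 1104 TPM with vehicle and 1991, 2700 and 1062 TPM with CDDO-Me. In NRF2 KO CM it was 1182, 2641 and 853 TPM with vehicle and 1648, 2005 and 544 TPM with CDDO-Me. In WT CM the drug-treated and vehicle libraries overlapped narrowly, and in KEAP1 KO CM the drug-treated libraries were all lower. The 7 neutrophil markers, led by S100a8, also moved with the drug. Their sum in KEAP1 KO CM was 21.7, 24.6 and 15.7 TPM with vehicle and 65.6, 74.2 and 71.9 TPM with CDDO-Me. In media it was 14.6, 26.8 and 27.1 TPM with vehicle and 31.8, 49.6 and 34.5 TPM with CDDO-Me. The NRF2 KO CM sums were 13.8, 18.0 and 31.4 TPM with vehicle and 52.3, 33.9 and 65.3 TPM with CDDO-Me. The drug-treated libraries were above the vehicle libraries in these 3 media. In WT CM the groups overlapped, at 11.1, 36.1 and 12.8 TPM with vehicle and 33.5, 59.4 and 43.3 TPM with CDDO-Me. Of the 5 T cell markers only Cd4 exceeded 1 TPM in any library, with Cd3d, Cd3e and Cd3g at or below 0.43 TPM. The 5 summed to 12.4 to 14.9 TPM in media/vehicle and 5.87 to 6.17 TPM in media/CDDO-Me BMDMs. In NRF2 KO CM they summed to 14.2 to 16.98 TPM with vehicle and 5.72 to 7.61 TPM with CDDO-Me. The WT CM sums were 6.16 to 6.62 TPM with vehicle and 4.20 to 5.855 TPM with CDDO-Me, without overlap, and the KEAP1 KO CM groups overlapped. Of the 4 dendritic cell markers only Xcr1 (at most 4.69 TPM) and Zbtb46 (at most 1.36 TPM) exceeded 1 TPM in any library. The 4 summed to 0.799 to 1.43 TPM in WT CM/vehicle and 3.61 to 5.21 TPM in WT CM/CDDO-Me BMDMs. The KEAP1 KO CM sums were 1.27 to 1.48 TPM with vehicle and 2.59 to 3.10 TPM with CDDO-Me, also without overlap. The 3 mast cell or basophil markers, led by Mcpt8, were lower with CDDO-Me in every medium without overlap. Their sum was 3.65 to 4.09 TPM with vehicle and 0.745 to 1.97 TPM with CDDO-Me in media, and 1.29 to 1.91 and 0.230 to 0.386 TPM in WT CM. The sum was 2.09 to 4.83 and 0.483 to 1.47 TPM in KEAP1 KO CM, and in NRF2 KO CM 6.08 to 15.7 and 1.80 to 4.13 TPM. The 3 endothelial markers, led by Pecam1, summed to 14.1 to 26.0 TPM in WT CM/vehicle and 4.14 to 5.10 TPM in WT CM/CDDO-Me BMDMs, and reached 64.0 TPM in NRF2 KO CM/vehicle. Their KEAP1 KO CM sums were 17.3 to 29.7 TPM with vehicle and 5.22 to 17.1 TPM with CDDO-Me, a narrow gap. The 5 epithelial or carcinoma markers, led by Krt19, moved with both medium and drug at low levels. Their sum was 8.77 to 9.23 TPM in KEAP1 KO CM/vehicle and 0.989 to 1.97 TPM in KEAP1 KO CM/CDDO-Me BMDMs. In WT CM it was 4.98 to 6.02 TPM with vehicle and 0.277 to 0.851 TPM with CDDO-Me, and in media 1.55 to 2.49 and 0.605 to 1.28 TPM. Epcam stayed at or below 0.272 TPM. The 4 B cell markers summed to at most 2.65 TPM. Their sum was lower with CDDO-Me without overlap in media (1.56 to 1.96 against 0.980 to 1.29 TPM) and KEAP1 KO CM (2.16 to 2.65 against 1.01 to 1.67 TPM). The same held in NRF2 KO CM (1.83 to 2.38 against 0.418 to 1.67 TPM), while the WT CM groups overlapped. The part of these transcripts in the results below was not tested. In these bulk samples, fewer cells of a type and less RNA per cell cannot be told apart.

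**Figure D1:**
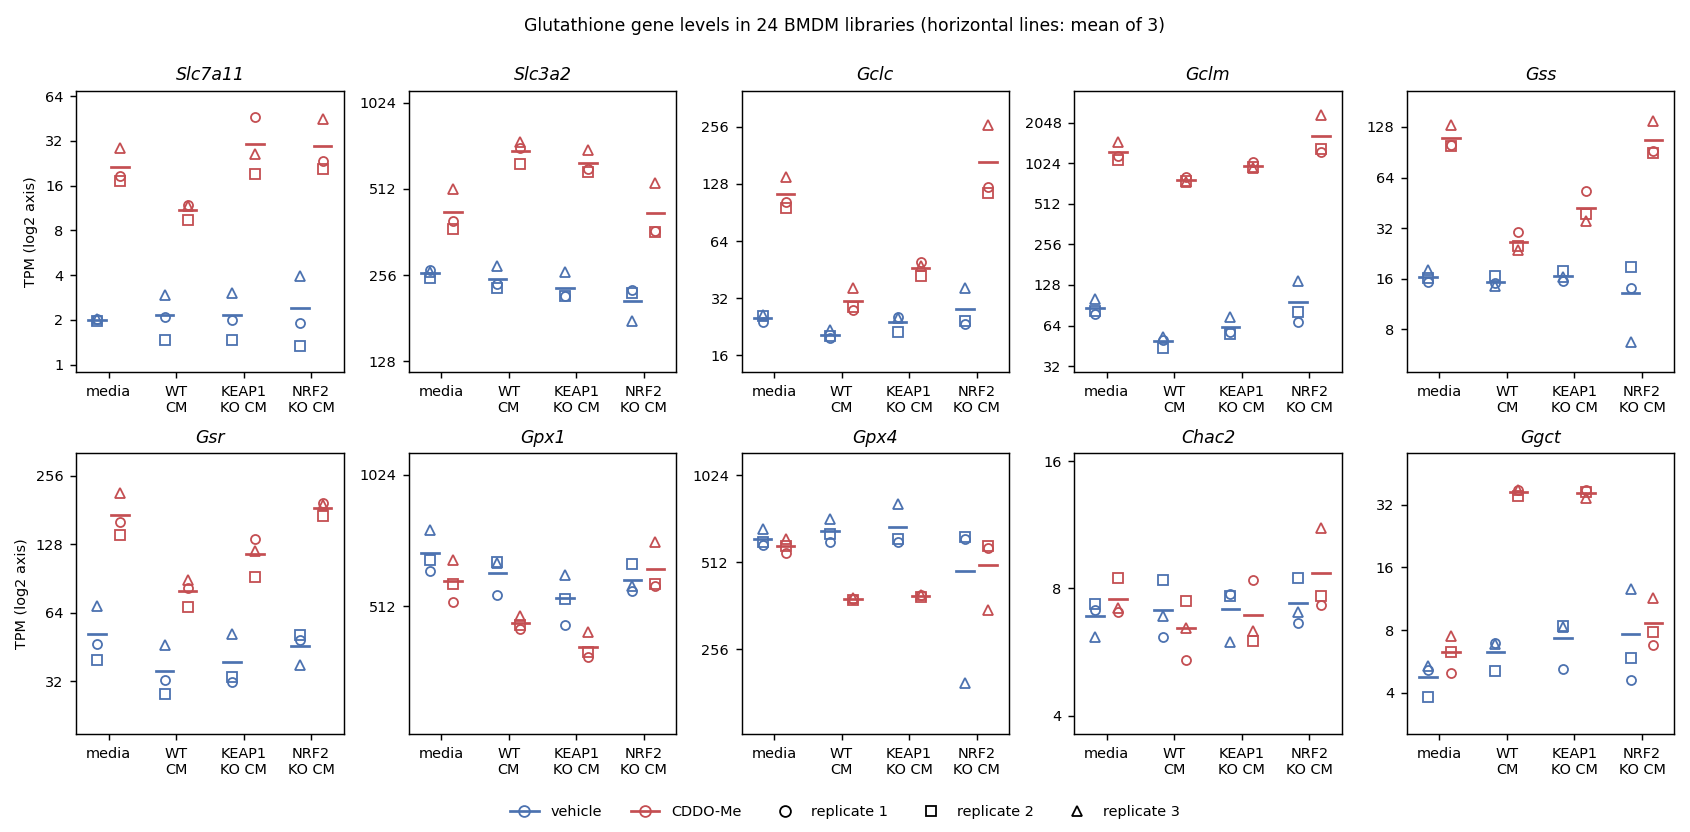
TPM of the 10 genes (log2 axes) in each of the 4 media (columns) with vehicle (blue) or CDDO-Me (red). Symbols are the replicates and lines the means of 3 libraries; Gclm stood at 741 TPM or more with CDDO-Me in every medium, while Ggct rose in WT CM and KEAP1 KO CM and stayed at or below 11.4 TPM with CDDO-Me in media and NRF2 KO CM.

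CDDO-Me raised the uptake, synthesis and recycling genes in all 4 media, except that Gclc was not called in WT CM, with the sizes of the Gclc and Gss changes differing by medium. In media, 6 of the 10 genes rose and none fell (Slc7a11, Slc3a2, Gclc, Gclm, Gss and Gsr), where 6.01% of all genes tested were called and 3.07% were called higher. The same 6 rose in NRF2 KO CM, where 9.78% of all genes were called and 4.5% called higher. With only the 2 NRF2 KO CM groups in the fit, 4 of these 6 were called, Slc3a2 (1.02, adjusted p = 0.155) and Gclc (2.48, adjusted p = 0.0695) no longer passing. In KEAP1 KO CM these 6 and Ggct rose, against 28.8% of all genes (14.5% higher). In WT CM 6 rose, Ggct among them but not Gclc, against 27.8% of all genes (13.9% higher). The median log2 fold change of the 10 genes was 1.22 in media, 1.06 in WT CM, 1.53 in KEAP1 KO CM and 1.51 in NRF2 KO CM, while the median over all genes tested lay between -0.03 and -0.01. Vehicle and CDDO-Me libraries did not overlap for 6 of the 10 genes in media (31.1% of all genes), 9 in WT CM (50.9%), 8 in KEAP1 KO CM (49.9%) and 6 in NRF2 KO CM (17% of all genes). Calls at an adjusted p under 0.05 were also counted without both NRF2 KO CM replicate 3 libraries. Of the 10 genes, 6 were then called in media (15.6% of all genes), 8 in WT CM (43.7%), 8 in KEAP1 KO CM (45.3%) and 6 in NRF2 KO CM (9.97%). In that fit the changes in NRF2 KO CM were 3.14 for Slc7a11, 0.73 for Slc3a2, 2.31 for Gclc, 4.12 for Gclm, 2.44 for Gss and 1.88 for Gsr, with adjusted p of 0.00691 or less. With the replicate number as a block the same number of the 10 genes was called in media and in NRF2 KO CM (6 in each), against 10.7% and 14.5% of all genes. Chac2, Gpx1 and Gpx4 were not called with CDDO-Me in any of the 4 media in the fit on all libraries, scaled and without a block. With the replicate number as a block, Gpx1 was called lower in WT CM (-0.27, adjusted p = 0.0264). On TPM without scaling between libraries, Gpx1 was called lower as well in WT CM (6 higher and 1 lower) and in KEAP1 KO CM (7 higher and 1 lower). Leaving out the scaling moved the median of all genes by -0.09 in WT CM (from -0.03 to -0.12) and by -0.15 in KEAP1 KO CM (from -0.02 to -0.17).

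**Figure D2:**
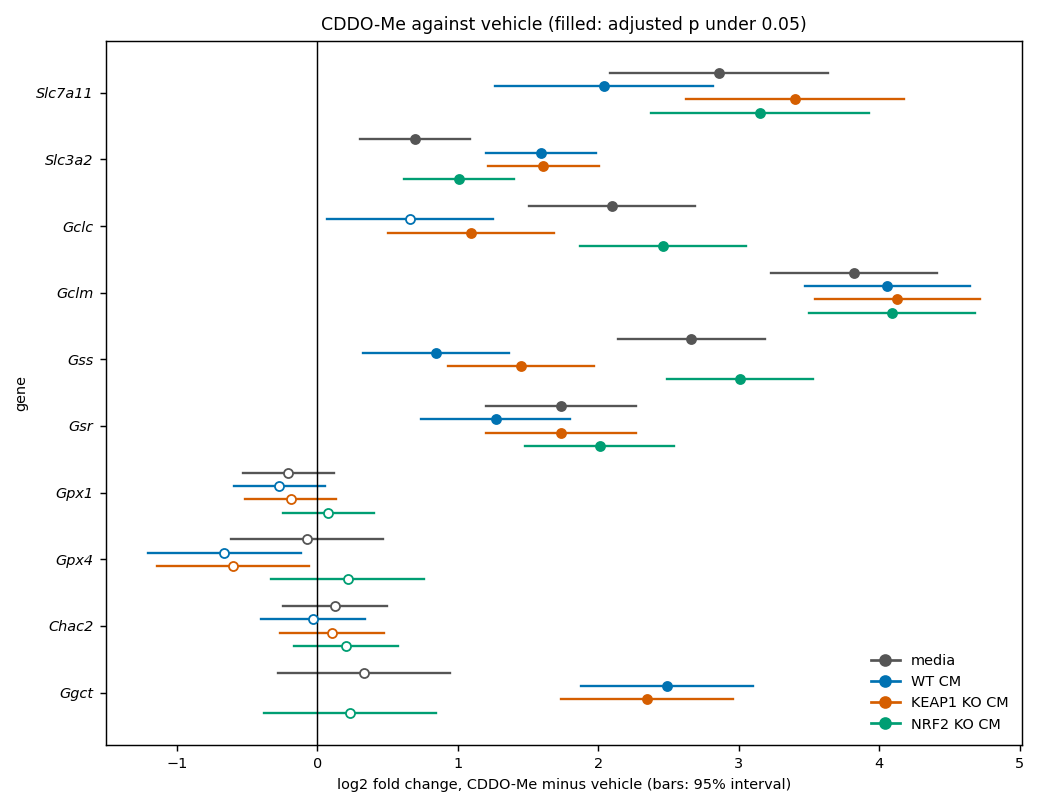
Log2 fold change of CDDO-Me over vehicle for each gene in the 4 media, with 95% intervals from the limma fit; filled points passed an adjusted p of 0.05. The Gclm points lie together between 3.82 and 4.13, the Gclc and Gss points of WT CM and KEAP1 KO CM lie below those of media and NRF2 KO CM, and the Ggct points lie near 0 in media and NRF2 KO CM.

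Of the cystine uptake pair, Slc7a11, the exchanger chain (chr3:49846975-50398070 on GRCm39), was among the lowest of the 10 genes without the drug. Its levels in media were 2.03, 1.96 and 2.02 TPM with vehicle and 18.6, 17.1 and 28.8 TPM with CDDO-Me. The WT CM levels were 2.08, 1.47 and 2.95 TPM with vehicle and 11.9, 9.45 and 11.6 TPM with CDDO-Me. With KEAP1 KO CM they were 2.00, 1.46 and 3.03 TPM with vehicle and 46.2, 19.2 and 26.3 TPM with CDDO-Me. Every CDDO-Me library was thus above every vehicle library, and the WT CM/CDDO-Me libraries were the lowest of the 12 that received the drug. The NRF2 KO CM levels were 1.91, 1.34 and 3.97 TPM with vehicle and 23.5, 20.9 and 44.7 TPM with CDDO-Me. The mean rose 10.7-fold in media, 5.06-fold in WT CM, 14.1-fold in KEAP1 KO CM and 12.3-fold in NRF2 KO CM (13.7-fold without replicate 3). The log2 fold changes were 2.86 in media, 2.04 in WT CM, 3.40 in KEAP1 KO CM and 3.15 in NRF2 KO CM (SE 0.37 each), with adjusted p of 2.43e-04 or less. Under CDDO-Me, Slc7a11 was 0.72 lower on the log2 scale in WT CM than in media (SE 0.37, adjusted p = 0.173), and with the replicate number as a block the adjusted p was 0.0419.

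Slc7a11 also gave the widest gap between WT CM and KEAP1 KO CM under the drug. Its level was 30.6 ± 14.0 TPM (SD, n = 3) in KEAP1 KO CM/CDDO-Me BMDMs and 10.97 ± 1.33 TPM in WT CM/CDDO-Me BMDMs. All 3 KEAP1 KO CM libraries were higher than the 3 WT CM libraries, replicate 1 by far the highest. In this comparison 5 of the 10 genes did not overlap, Slc7a11, Gclc, Gclm and Gss higher and Gpx1 lower in KEAP1 KO CM, beside 11.3% of all genes. The log2 difference of 1.31 (SE 0.37) had an unadjusted p of 0.00234 and an adjusted p of 0.405, so it was not called. With the replicate number as a block the SE was 0.26, the unadjusted p 1.16e-04 and the adjusted p 0.05, at the threshold and not called, where 0.205% of all genes were called. None of the 10 genes was called between these groups, 2 had an unadjusted p under 0.05 (Slc7a11 and Gss), and 0.0512% of all genes were called. The difference of the CDDO-Me effect between KEAP1 KO CM and WT CM, 1.36 for Slc7a11 (SE 0.53), was not called either (adjusted p = 1).

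Slc3a2 (chr19:8684245-8701108), the heavy chain that Slc7a11 shares with several other amino acid transporters, was abundant with and without the drug. It stood at 268, 251 and 262 TPM in media/vehicle BMDMs and at 395, 370.0 and 511 TPM in media/CDDO-Me BMDMs. In WT CM the levels were 238, 231 and 276 TPM with vehicle and 715, 624 and 749.6 TPM with CDDO-Me. KEAP1 KO CM gave levels of 217, 216 and 262 TPM with vehicle and 602, 585 and 699 TPM with CDDO-Me. The WT CM and KEAP1 KO CM libraries with CDDO-Me were above all other libraries. NRF2 KO CM gave levels of 226, 221 and 176 TPM with vehicle and 365, 364 and 539 TPM with CDDO-Me. The log2 fold change of Slc3a2 was 0.70 in media (SE 0.19, adjusted p = 0.0291), 1.59 in WT CM (adjusted p = 1.43e-06), 1.61 in KEAP1 KO CM (adjusted p = 1.25e-06) and 1.01 in NRF2 KO CM (adjusted p = 0.00116). The call in media was lost without any 1 of the media/vehicle libraries, or without replicate 1 or 3 of media/CDDO-Me, with adjusted p up to 0.175.

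The CDDO-Me effect on Slc3a2 was larger by 0.90 in WT CM than in media (SE 0.26, adjusted p = 0.0254) and by 0.91 in KEAP1 KO CM than in media (SE 0.26, adjusted p = 0.0231). These 2 differences share the media libraries. Each was close to the threshold: leaving out 1 library gave an adjusted p of up to 0.0803 in WT CM (replicates 1 and 3 of media/vehicle, 1 and 2 of WT CM/vehicle, 1 and 2 of media/CDDO-Me, 1 and 3 of WT CM/CDDO-Me). In KEAP1 KO CM it was up to 0.074 (replicate 1 of media/vehicle, 1 and 2 of media/CDDO-Me, 3 of KEAP1 KO CM/CDDO-Me). The ratio of Slc3a2 to Slc7a11 was 130 ± 2.03 (SD, n = 3) in media/vehicle and 20.2 ± 2.13 in media/CDDO-Me BMDMs. With CDDO-Me the ratio was 63.6 ± 3.05 in WT CM, 23.4 ± 9.16 in KEAP1 KO CM and 15.0 ± 2.72 in NRF2 KO CM (15.5 and 17.4 without replicate 3). The WT CM/CDDO-Me ratios, at 60.2 to 66.1, did not overlap those of any other CDDO-Me group.

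Among the synthesis genes, the modifier subunit Gclm (chr3:122039126-122065061) reached the highest level of the 10 genes under the drug and changed the most. Its levels in media were 77.9, 81.6 and 100.7 TPM with vehicle and 1161, 1084 and 1471 TPM with CDDO-Me. WT CM gave levels of 50.2, 43.5 and 53.0 TPM with vehicle and 810.0, 749 and 741 TPM with CDDO-Me. The KEAP1 KO CM levels were 57.8, 55.4 and 74.0 TPM with vehicle and 1048, 953 and 934 TPM with CDDO-Me. The groups were far apart in each of these media. With NRF2 KO CM they were 68.2, 80.0 and 137 TPM with vehicle and 1236, 1314 and 2331 TPM with CDDO-Me. The mean rose 14.3-fold in media, 15.7-fold in WT CM, 15.7-fold in KEAP1 KO CM and 17.1-fold in NRF2 KO CM (17.2-fold without replicate 3). On the log2 scale the change was 3.82, 4.06, 4.13 and 4.09 in the same order (SE 0.28 each), with adjusted p of 5.45e-08 or less. The differences between media were small against their errors, for example 0.24 for WT CM minus media, with a 95% interval from -0.60 to 1.07. A same-strand pseudogene that shares exons with Gclm, Gm6061, was listed at up to 14.4 TPM.

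Gclc, the catalytic subunit (chr9:77661797-77701770), had smaller fold changes in WT CM and KEAP1 KO CM than in the other media. Its levels in media were 23.9, 25.7 and 26.0 TPM with vehicle and 103, 95.8 and 139 TPM with CDDO-Me. With WT CM they were 19.7, 20.2 and 21.9 TPM with vehicle and 27.7, 28.8 and 36.1 TPM with CDDO-Me. Levels with KEAP1 KO CM were 25.4, 21.3 and 25.1 TPM with vehicle and 49.6, 42.0 and 47.5 TPM with CDDO-Me. All drug-treated libraries were above their vehicle libraries, and those of WT CM only by a narrow margin. Levels with NRF2 KO CM were 23.3, 24.4 and 36.4 TPM with vehicle and 124, 115 and 262 TPM with CDDO-Me. The mean rose 4.46-fold in media, 1.94-fold in KEAP1 KO CM and 5.96-fold in NRF2 KO CM (5.01-fold without replicate 3). The log2 fold change of Gclc was 2.10 in media, 1.10 in KEAP1 KO CM (adjusted p = 0.00529) and 2.46 in NRF2 KO CM (SE 0.28 each), with adjusted p of 6.49e-05 or less in media and NRF2 KO CM. In WT CM it was 0.66 (SE 0.28, adjusted p = 0.0939), and without both NRF2 KO CM replicate 3 libraries it was 0.71 (SE 0.14, adjusted p = 4.97e-04).

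The order of Gclc levels with CDDO-Me was NRF2 KO CM, media, KEAP1 KO CM and WT CM. NRF2 KO CM and media overlapped, and each other step in that order was free of overlap. The CDDO-Me effect on Gclc was smaller in WT CM than in media by 1.44 on the log2 scale (difference -1.44, SE 0.40, adjusted p = 0.0173). Without replicate 3 of media/CDDO-Me that difference was -1.24 (adjusted p = 0.0548). In KEAP1 KO CM the difference from media was -1.005 (SE 0.40, adjusted p = 0.107), and without both NRF2 KO CM replicate 3 libraries it was -0.99 (SE 0.20, adjusted p = 9.83e-04). The ratio of Gclm to Gclc in media was 3.44 ± 0.382 (SD, n = 3) with vehicle and 11.1 ± 0.394 with CDDO-Me. With CDDO-Me it was 25.2 ± 4.42 in WT CM, 21.2 ± 1.51 in KEAP1 KO CM and 10.1 ± 1.26 in NRF2 KO CM (9.99 and 11.4 without replicate 3). The lowest ratio in WT CM or KEAP1 KO CM under the drug was 19.7, above the highest in media or NRF2 KO CM, 11.4.

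**Figure D3:**
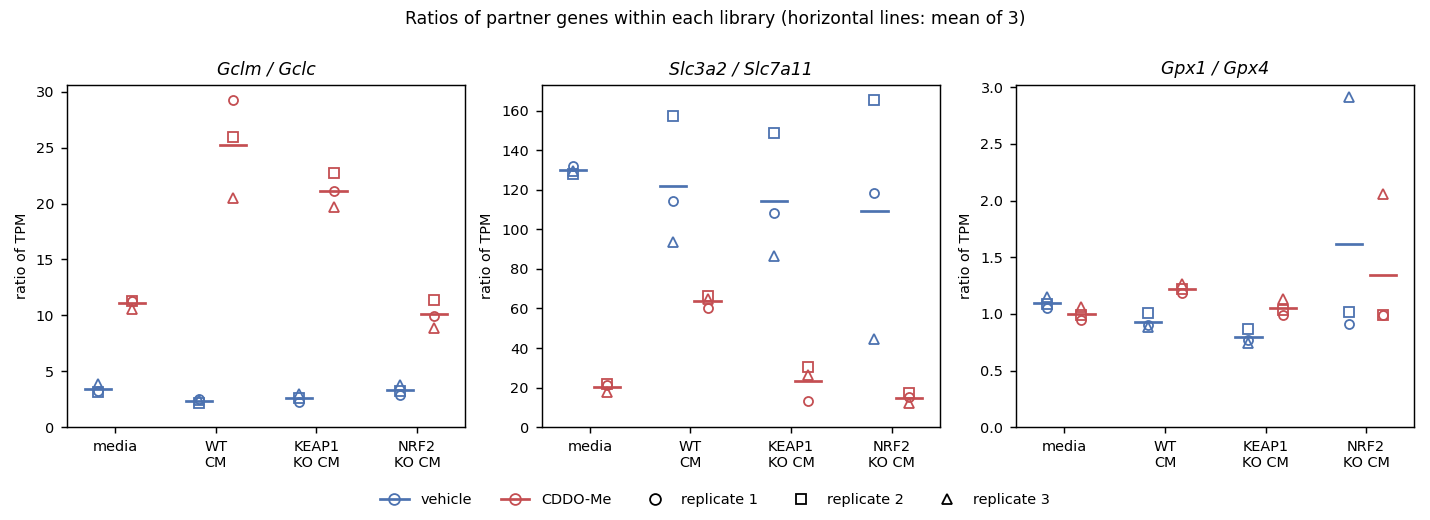
Ratios of TPM within each library for Gclm to Gclc, Slc3a2 to Slc7a11 and Gpx1 to Gpx4, by medium, with vehicle (blue) or CDDO-Me (red). Symbols are the replicates and lines the means of 3 libraries; with CDDO-Me the Gclm to Gclc ratio lies at 19.7 to 29.2 in WT CM and KEAP1 KO CM and at 8.90 to 11.4 in media and NRF2 KO CM.

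Gss, the synthetase (chr2:155405096-155455505), also rose least in WT CM. Its levels in media were 15.3, 16.1 and 18.0 TPM with vehicle and 100.5, 98.05 and 132 TPM with CDDO-Me. Levels with WT CM were 15.1, 16.7 and 14.5 TPM with vehicle and 30.5, 24.9 and 23.8 TPM with CDDO-Me. With KEAP1 KO CM they were 15.5, 17.8 and 16.5 TPM with vehicle and 53.5, 38.7 and 35.2 TPM with CDDO-Me. Vehicle and CDDO-Me libraries were apart in each medium, and with CDDO-Me the 3 WT CM libraries were below all 3 from KEAP1 KO CM, which were below all from media. The NRF2 KO CM levels were 14.1, 18.7 and 6.71 TPM with vehicle and 92.1, 89.995 and 139 TPM with CDDO-Me. The mean rose 6.69-fold in media and 1.72-fold in WT CM. On the log2 scale the change was 2.66 in media (SE 0.25, adjusted p = 8.23e-07), 0.84 in WT CM (adjusted p = 0.0141), 1.45 in KEAP1 KO CM (adjusted p = 1.24e-04) and 3.01 in NRF2 KO CM (adjusted p = 1.54e-07). The WT CM value was 0.73 without replicate 1 of WT CM/CDDO-Me (adjusted p = 0.0693). The opposite-strand gene Acss2 shares exons with Gss and was listed at up to 98.7 TPM, and the sources do not say whether the quantification used strand.

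The Gss effect was smaller than in media by 1.82 in WT CM (difference -1.82, SE 0.35, adjusted p = 9.63e-04) and by 1.21 in KEAP1 KO CM (difference -1.21, SE 0.35, adjusted p = 0.0229). The second was not called without replicate 1 of media/vehicle, 3 of media/CDDO-Me, or 2 or 3 of KEAP1 KO CM/CDDO-Me, with adjusted p up to 0.0683. Against NRF2 KO CM the differences were -2.17 for WT CM (adjusted p = 1.64e-04) and -1.56 for KEAP1 KO CM (adjusted p = 0.00425). Without both NRF2 KO CM replicate 3 libraries they were -1.56 (adjusted p = 1.18e-04) and -0.97 (adjusted p = 0.00778). With only the groups compared in the fit, the KEAP1 KO CM difference was -1.56 (adjusted p = 0.0539).

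Gsr (chr8:34142551-34188192), which recycles oxidised glutathione, rose in all 4 media. Its levels in media were 46.5, 39.7 and 68.5 TPM with vehicle and 160, 141 and 214 TPM with CDDO-Me. The WT CM levels were 32.5, 28.0 and 46.3 TPM with vehicle and 82.0, 67.4 and 89.5 TPM with CDDO-Me. KEAP1 KO CM gave levels of 31.6, 33.3 and 51.4 TPM with vehicle and 135, 91.4 and 120 TPM with CDDO-Me. Replicate 3 was the highest vehicle library in these 3 media. NRF2 KO CM gave levels of 48.6, 50.9 and 37.6 TPM with vehicle and 195, 170.0 and 191 TPM with CDDO-Me. The log2 fold change of Gsr was 1.74 in media, 1.27 in WT CM, 1.73 in KEAP1 KO CM and 2.01 in NRF2 KO CM (SE 0.25 each, adjusted p of 6.21e-04 or less). No difference of the Gsr effect from that in media was called, the largest being -0.46 in WT CM with a 95% interval from -1.22 to 0.29.

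Of the peroxidases, Gpx1 (chr9:108216102-108217546), the abundant cytosolic enzyme, was not called with the drug in any medium on scaled values without a block. Its levels ran from 617 to 765 TPM in media/vehicle and from 524 to 655 TPM in media/CDDO-Me BMDMs. WT CM gave levels of 543, 647 and 644 TPM with vehicle and 454, 463 and 485 TPM with CDDO-Me. The KEAP1 KO CM levels were 464, 533 and 603 TPM with vehicle and 391, 401 and 446 TPM with CDDO-Me. In both of these media the CDDO-Me libraries had lower TPM than the vehicle libraries, but after scaling between libraries the KEAP1 KO CM groups overlapped. With NRF2 KO CM they were 556, 640 and 570 TPM with vehicle and 569, 576 and 721 TPM with CDDO-Me. The log2 fold changes of -0.21 in media, -0.27 in WT CM, -0.19 in KEAP1 KO CM and 0.08 in NRF2 KO CM (SE 0.15 each) had adjusted p of 0.23 or more. With the replicate number as a block Gpx1 was called lower in WT CM (SE 0.09, adjusted p = 0.0264). On unscaled TPM it was called lower in WT CM and KEAP1 KO CM. Without both NRF2 KO CM replicate 3 libraries the change in NRF2 KO CM was -0.03 (adjusted p = 0.957).

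Gpx4 (chr10:79883000-79892273), the peroxidase that reduces lipid hydroperoxides in membranes, had calls that depended on the libraries that stood apart. Its levels in media were 588, 602 and 665 TPM with vehicle and 553, 584 and 618 TPM with CDDO-Me. With WT CM they were 603, 641 and 724 TPM with vehicle and 382, 380.3 and 384 TPM with CDDO-Me. Levels with KEAP1 KO CM were 603, 617 and 811 TPM with vehicle and 394, 388 and 394 TPM with CDDO-Me. The 6 drug-treated libraries of these media lay within 380.3 to 394 TPM, below every vehicle library of the same medium. On the log2 scale the change was -0.66 in WT CM (SE 0.26, adjusted p = 0.066) and -0.60 in KEAP1 KO CM (SE 0.26, adjusted p = 0.0962). Without both NRF2 KO CM replicate 3 libraries, which belong to neither comparison, the values were -0.62 (SE 0.10, adjusted p = 9.70e-05) and -0.58 (SE 0.10, adjusted p = 1.95e-04). In that fit the effect also differed from that in media, by -0.56 in WT CM (adjusted p = 0.00807) and -0.51 in KEAP1 KO CM (adjusted p = 0.0136). With all libraries these differences were -0.59 (adjusted p = 0.37) and -0.53 (adjusted p = 0.436).

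Of the degradation genes, Ggct (chr6:54959246-54969942), gamma-glutamylcyclotransferase, separated WT CM and KEAP1 KO CM from the other media under the drug. Its levels in WT CM were 6.96, 5.08 and 6.86 TPM with vehicle and 37.6, 35.04 and 37.5 TPM with CDDO-Me. With KEAP1 KO CM they were 5.23, 8.41 and 8.33 TPM with vehicle and 37.6, 36.8 and 34.5 TPM with CDDO-Me. In media they were 5.15, 3.81 and 5.39 TPM with vehicle and 4.98, 6.29 and 7.53 TPM with CDDO-Me. The 6 drug-treated libraries of WT CM and KEAP1 KO CM were thus above all others by a wide gap. Levels with NRF2 KO CM were 4.604, 5.91 and 12.6 TPM with vehicle and 6.79, 7.81 and 11.4 TPM with CDDO-Me. The fitted log2 change of Ggct was 2.49 in WT CM (SE 0.29, adjusted p = 1.45e-06) and 2.35 in KEAP1 KO CM (SE 0.29, adjusted p = 2.90e-06). It was 0.33 in media (95% interval -0.28 to 0.94) and 0.23 in NRF2 KO CM (95% interval -0.38 to 0.84). Without both NRF2 KO CM replicate 3 libraries the NRF2 KO CM change was 0.44 (95% interval -0.002 to 0.88, adjusted p = 0.238). The effect was larger than in media by 2.16 in WT CM (SE 0.41, adjusted p = 8.81e-04) and by 2.02 in KEAP1 KO CM (SE 0.41, adjusted p = 0.00167). Against NRF2 KO CM the differences were 2.26 (adjusted p = 6.04e-04) and 2.12 (adjusted p = 0.0012), and without both NRF2 KO CM replicate 3 libraries 2.09 (adjusted p = 1.43e-05) and 1.94 (adjusted p = 3.61e-05).

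Chac2 (chr11:30926553-30936372), which cleaves glutathione itself, was low in every library. Its level lay between 5.43 and 11.1 TPM over all 24 libraries, and its group means between 6.44 ± 1.01 TPM (SD, n = 3) in WT CM/CDDO-Me and 8.70 ± 2.10 TPM in NRF2 KO CM/CDDO-Me BMDMs. Without replicate 3 the NRF2 KO CM/CDDO-Me mean was 7.492 TPM, below the 7.565 TPM of media/CDDO-Me BMDMs. Vehicle and CDDO-Me libraries overlapped in each medium. The log2 fold changes with CDDO-Me ran from -0.03 in WT CM to 0.20 in NRF2 KO CM (SE 0.18 each), with 95% intervals inside -0.40 to 0.57. Without both NRF2 KO CM replicate 3 libraries the change in NRF2 KO CM was 0.03, and that in media, 0.14, was the highest. Chac2 was called in none of the 4 media.

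**Figure D4:**
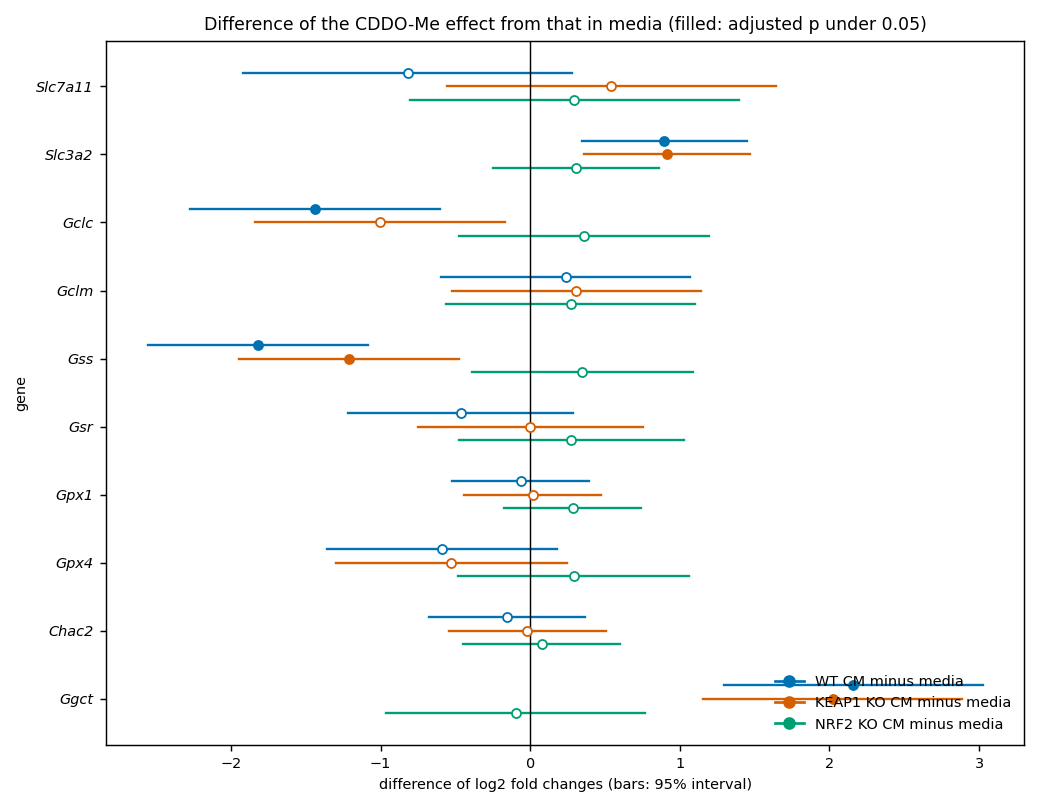
Difference between the CDDO-Me effect in each conditioned medium and that in media, on the log2 scale with 95% intervals; filled points passed an adjusted p of 0.05. Ggct and Slc3a2 lie to the right and Gclc and Gss to the left for WT CM and KEAP1 KO CM (Gclc in KEAP1 KO CM not past the threshold), while all NRF2 KO CM intervals cross 0.

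As a count, the CDDO-Me effect differed from that in media for 4 of the 10 genes in WT CM (Slc3a2 and Ggct larger, Gclc and Gss smaller), where 15% of all genes were called. In KEAP1 KO CM it differed for 3 (Slc3a2 and Ggct larger, Gss smaller), against 14.7% of all genes, and on unscaled TPM Gclc was also smaller, giving 2 larger and 2 smaller. In NRF2 KO CM it differed for 0 of the 10 genes by limma, with 0 at an unadjusted p under 0.05, and 0% of all genes were called. Between KEAP1 KO CM and WT CM it differed for 0, with 1 at an unadjusted p under 0.05 (Slc7a11), and again 0% of all genes were called. Relative to NRF2 KO CM it differed for Ggct, Gclc and Gss in WT CM (13.3% of all genes) and for the same 3 in KEAP1 KO CM (12.7% of all genes). Without both NRF2 KO CM replicate 3 libraries each of these last comparisons called 5 genes, adding Slc3a2 and Gpx4, against 21.7% and 21.4% of all genes. Gclc was then -1.60 in WT CM and -1.19 in KEAP1 KO CM, Slc3a2 0.91 and 0.90, and Gpx4 -0.55 and -0.51. The Gclc value in KEAP1 KO CM against NRF2 KO CM, -1.36 (adjusted p = 0.0276), was not called without replicate 1 or 3 of KEAP1 KO CM/vehicle, 1 or 2 of NRF2 KO CM/vehicle, or 2 of KEAP1 KO CM/CDDO-Me, with adjusted p up to 0.0664, nor with only the groups compared (adjusted p = 0.154).

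Without the drug, the question was whether conditioned media alone moved these genes. With vehicle, 0 of the 10 genes were called by limma between WT CM and media (7.34% of all genes called), between KEAP1 KO CM and media (7.96%), and between NRF2 KO CM and media (0.00732%). At an unadjusted p under 0.05 the counts were 1, 1 and 0. The gene in WT CM was Gclm, at 48.9 ± 4.85 TPM (SD, n = 3) against 86.8 ± 12.2 TPM in media. All 3 WT CM/vehicle libraries were below the 3 media/vehicle libraries for Gclm and also for Gclc, where 34.6% of all genes did not overlap. Between KEAP1 KO CM and media only Gclm did not overlap (35.9% of all genes), and between NRF2 KO CM and media only Slc3a2 (12.8% of all genes). For Gclm in WT CM the log2 difference of -0.75 (SE 0.28) had an adjusted p of 0.136, of 0.0219 with the replicate number as a block, and of 9.55e-04 without both NRF2 KO CM replicate 3 libraries, where 19.1% of all genes were called. The gene in KEAP1 KO CM was Gpx1, with a difference of -0.36 (SE 0.15, adjusted p = 0.202). With the replicate number as a block its SE was 0.09 and its adjusted p 0.0126, so it was called there. In the fit without both NRF2 KO CM replicate 3 libraries, Gpx1 (-0.35, adjusted p = 0.0363), Gclm (-0.48, adjusted p = 0.0215) and Ggct (0.50, adjusted p = 0.0432) were called in KEAP1 KO CM, against 21.8% of all genes.

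Among the conditioned media with vehicle, 0 of the 10 genes were called between KEAP1 KO CM and WT CM (0% of all genes), with 0 at an unadjusted p under 0.05. The count was also 0 between WT CM and NRF2 KO CM (10.7% of all genes), with 2 at an unadjusted p under 0.05. It was 0 between KEAP1 KO CM and NRF2 KO CM (8.82% of all genes), with 1 at an unadjusted p under 0.05. Gclm was 0.85 lower in WT CM than in NRF2 KO CM (SE 0.28, adjusted p = 0.0607), and without both replicate 3 libraries 0.49 lower (SE 0.16, adjusted p = 0.0417). Gpx4 differed by 0.67 and 0.63 from NRF2 KO CM, the group whose replicate 3 was at 196 TPM (adjusted p = 0.108 in the comparison with WT CM and 0.144 in that with KEAP1 KO CM). Without both replicate 3 libraries the Gpx4 differences were 0.17 (adjusted p = 0.358) and 0.15 (adjusted p = 0.459).

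Under the drug, WT CM and KEAP1 KO CM differed from media for several of the 10 genes. Between WT CM/CDDO-Me and media/CDDO-Me BMDMs, 5 of the 10 genes were called (26.8% of all genes) and 8 did not overlap (51.8% of all genes). Slc3a2 was higher by 0.89 (SE 0.19, adjusted p = 0.00118) and Ggct by 2.55 (SE 0.29, adjusted p = 1.45e-06). Gclc was lower (-1.65, adjusted p = 1.57e-04), as were Gss (-1.85, adjusted p = 1.07e-05) and Gsr (-0.92, adjusted p = 0.0104). Gsr was not called without replicate 3 of media/CDDO-Me (-0.70, adjusted p = 0.0673) or replicate 2 of WT CM/CDDO-Me (-0.79, adjusted p = 0.0523). On unscaled TPM, Slc7a11 and Gclm were called lower too, giving 2 higher and 5 lower in place of 2 higher and 3 lower.

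Between KEAP1 KO CM/CDDO-Me and media/CDDO-Me BMDMs, 4 of the 10 genes were called (22.5% of all genes) and 6 did not overlap (45.9% of all genes). Slc3a2 (0.73, adjusted p = 0.00697) and Ggct (2.52, adjusted p = 1.82e-06) were higher, and Gclc (-1.09, adjusted p = 0.00758) and Gss (-1.21, adjusted p = 0.00109) were lower. Gpx1 was -0.34 (adjusted p = 0.13, and 0.00728 with the replicate number as a block), and on unscaled TPM it was called, giving 2 higher and 3 lower. Between NRF2 KO CM/CDDO-Me and media/CDDO-Me BMDMs, 0 of the 10 genes were called by limma, 0 had an unadjusted p under 0.05, and all 10 overlapped. In that comparison 0.154% of all genes were called and 13.1% did not overlap. The count of the 10 genes was also 0 without both NRF2 KO CM replicate 3 libraries.

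Relative to NRF2 KO CM/CDDO-Me BMDMs, 7 of the 10 genes were called in WT CM/CDDO-Me BMDMs (25.9% of all genes). Slc3a2 (0.88, adjusted p = 0.00141) and Ggct (2.13, adjusted p = 1.47e-05) were higher. Gclc (-2.16), Gss (-1.82), Gsr (-1.07), Slc7a11 (-1.15, adjusted p = 0.0269) and Gclm (-0.88, adjusted p = 0.0258) were lower, with adjusted p of 0.00354 or less for the first 3. Without both NRF2 KO CM replicate 3 libraries Slc7a11 was -0.75 (adjusted p = 0.0679), Slc3a2 1.15, Ggct 2.39, Gclc -1.71, Gss -1.54, Gsr -0.97 and Gclm -0.51 (adjusted p = 0.0156), and Gpx4 was called as well (-0.38, adjusted p = 0.0163). The Slc7a11 call was also lost without any 1 of the WT CM/CDDO-Me libraries, with no filter on low values (adjusted p = 0.0517) and with only the groups compared (adjusted p = 0.0559). The Gclm call was lost without replicate 2 or 3 of WT CM/CDDO-Me and without replicate 3 of NRF2 KO CM/CDDO-Me (-0.51, adjusted p = 0.162), and with only the groups compared (-0.89, adjusted p = 0.0852). In KEAP1 KO CM/CDDO-Me BMDMs 5 were called relative to NRF2 KO CM (20.9% of all genes): Slc3a2 and Ggct higher (0.72 and 2.10), Gclc, Gss and Gpx1 lower (-1.60, -1.18 and -0.45). Gpx1 there had an adjusted p of 0.0421, and 0.118 without both replicate 3 libraries, with a value of -0.27, and it was not called in 7 of the fits that left out 1 library, with no filter (adjusted p = 0.0608) or with only the groups compared (adjusted p = 0.151). Without both replicate 3 libraries Slc3a2 was 0.98, Ggct 2.36, Gclc -1.15 and Gss -0.91 in KEAP1 KO CM, and Gpx4 was called too (-0.36, adjusted p = 0.0243). Slc3a2 there was 0.57 without replicate 2 of NRF2 KO CM/CDDO-Me (adjusted p = 0.0548) and 0.74 with only the groups compared (adjusted p = 0.083). Gsr was -0.57 (adjusted p = 0.129, and 0.0148 with the replicate number as a block), and on unscaled TPM Gsr and Gclm were called too, giving 2 higher and 5 lower.

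Across the 24 libraries, the 10 genes fell along these lines as a description. The Pearson r of log2 values was 0.965 between Slc7a11 and Gclm, 0.941 between Gclm and Gsr, and 0.918 between Gclc and Gss. Ggct followed Slc3a2 most closely (r = 0.834) and Gclc hardly at all (r = 0.12). Without both NRF2 KO CM replicate 3 libraries the r was 0.961 between Slc7a11 and Gclm, 0.977 between Gclc and Gss, and 0.897 between Ggct and Slc3a2. These libraries share the media and drug groups, and the values carry no test. Among all other genes tested, the patterns most like Gclm over the 24 libraries were those of Panx1 (r = 0.994), Abcc4 (r = 0.990) and G6pdx (r = 0.987). Slc7a11 was closest to Panx1 (r = 0.977) and Abcc4 (r = 0.975) and then Gclm. Gclc was closest to Gsta3 (r = 0.963), Ttc12 (r = 0.962) and Skint3 (r = 0.959), and Gsr to Slc22a4 (r = 0.980), Srxn1 (r = 0.969) and Slc39a4 (r = 0.963). Over the 22 libraries without the pair that stood apart, Panx1 was still first for Slc7a11, Gsta3 for Gclc and Slc22a4 for Gsr, and Panx1 was the second for Gclm. In the order for Gclc, Ttc12 fell to 12 (r = 0.952) and Skint3 to 9. For Slc7a11, Abcc4 was at 6 and Gclm at 10, and for Gclm, Abcc4 was at 5 and G6pdx at 6. For Gsr, Srxn1 was at 2 and Slc39a4 at 9.

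Other known NRF2 targets rose under the drug as well. Of 17 such genes outside the pathway, 14 rose with CDDO-Me in media, 11 in WT CM, 13 in KEAP1 KO CM and 15 in NRF2 KO CM, and none fell in any of them, beside 6.01%, 27.8%, 28.8% and 9.78% of all genes called. In NRF2 KO CM 15 also rose when both replicate 3 libraries were left out, where 9.97% of all genes were called. The 17 genes had median log2 fold changes of 1.59, 1.21, 1.43 and 1.69. Nqo1, a quinone reductase, rose from 3.37 ± 1.38 to 134 ± 74.5 TPM in media (log2 fold change 4.85, SE 0.33, adjusted p = 2.10e-08) and from 3.17 ± 0.935 to 48.3 ± 10.6 TPM in WT CM (3.68, adjusted p = 3.61e-08; SD, n = 3). Prdx1, a peroxiredoxin, rose by 2.38 in media and 3.18 in KEAP1 KO CM, and Srxn1, its repair enzyme, by 2.63 and 2.80. The CDDO-Me effect on these 17 genes was smaller in WT CM than in media for 5 and larger for none, where 8.3% of all genes had a larger and 6.74% a smaller effect. In the fit without both NRF2 KO CM replicate 3 libraries 10 of the 17 differed in WT CM, 2 of them larger, beside 3916 of all 13562 genes. With the replicate number as a block 8 differed, 1 of them larger, beside 2871 of all 13661 genes. For KEAP1 KO CM the effect was smaller for 2 and larger for 2, where 14.7% of all genes were called. Leaving out both replicate 3 libraries it differed for 7, 3 of them larger, beside 4040 of all 13562 genes.

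**Figure D5:**
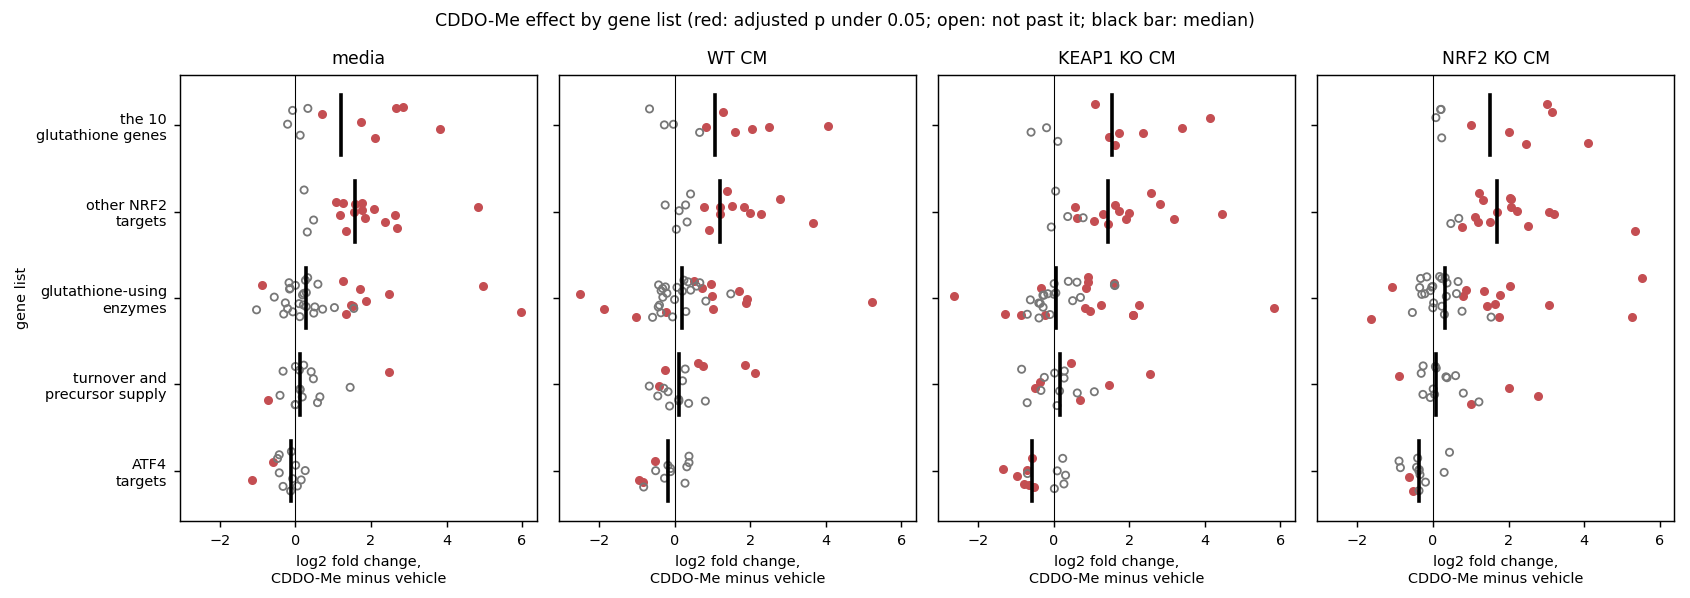
Log2 fold change of CDDO-Me over vehicle for each tested gene of 5 gene lists in the 4 media; red points passed an adjusted p of 0.05, open points did not, and black bars are medians. The 10 glutathione genes and the other NRF2 targets lie to the right with medians of 1.06 to 1.69, while the medians of the other 3 lists stay between -0.56 and 0.32.

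Enzymes that use glutathione were mixed. Of 35 tested from a list of 40, 9 rose and 1 fell in media, 9 rose and 4 fell in WT CM, 11 rose and 5 fell in KEAP1 KO CM, and 11 rose and 2 fell in NRF2 KO CM. Among all genes 3.07% rose and 2.94% fell in media, 13.9% and 13.9% in WT CM, 14.5% and 14.2% in KEAP1 KO CM, and 4.5% and 5.28% in NRF2 KO CM. The list's median log2 fold changes were 0.28, 0.21, 0.05 and 0.32 in the same order. In NRF2 KO CM 11 were called when both replicate 3 libraries were left out, 10 of them higher, where 9.97% of all genes were called. Gsta4, a glutathione transferase, rose by 5.96 in media (SE 0.44, adjusted p = 5.45e-08) and by 5.23 in WT CM (adjusted p = 1.69e-08). Its relative Gsta3 rose from 1.87 ± 0.775 to 89.0 ± 21.6 TPM in media and from 0.911 ± 0.288 to 5.65 ± 1.44 TPM in WT CM (SD, n = 3). The Gsta3 effect in WT CM was 3.08 smaller than in media (difference -3.08, SE 0.46, adjusted p = 6.63e-05). Transferases of 1 family are similar in sequence, and how the quantification split their reads was not tested. Ltc4s, leukotriene C4 synthase, fell in WT CM (-2.51, adjusted p = 2.11e-07) and KEAP1 KO CM (-2.64, adjusted p = 1.14e-07). With vehicle it was higher in WT CM than in media (0.98, adjusted p = 0.0215), as was the glutaredoxin Glrx (1.21, adjusted p = 8.60e-04), while the prostaglandin D synthase Hpgds was lower (-0.96, adjusted p = 0.0122).

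Of 17 genes tested from 22 for glutathione turnover and precursor supply, 1 rose and 1 fell with CDDO-Me in media, 4 rose and 2 fell in both WT CM and KEAP1 KO CM, and 3 rose and 1 fell in NRF2 KO CM. All genes were called at 6.01% in media, 27.8% in WT CM, 28.8% in KEAP1 KO CM and 9.78% in NRF2 KO CM, so 6 of 17 in WT CM and KEAP1 KO CM lay near the background. The medians were 0.13, 0.11, 0.15 and 0.09. With the replicate number as a block 4 were called in media and 7 in NRF2 KO CM, against 10.7% and 14.5% of all genes. Without both NRF2 KO CM replicate 3 libraries 3 were called in NRF2 KO CM (9.97% of all genes), 4 in media (15.6%) and 9 in WT CM (43.7%). Abcc1, an exporter of glutathione and its conjugates, rose in all 4 media, by 2.49 in media, 2.12 in WT CM, 2.54 in KEAP1 KO CM and 2.79 in NRF2 KO CM (SE 0.17 each, adjusted p of 2.55e-08 or less; 2.59 in NRF2 KO CM without both replicate 3 libraries). Anpep, an aminopeptidase, fell by 0.73 in media, 0.43 in WT CM (adjusted p = 0.00486) and 0.90 in NRF2 KO CM (-0.81 without both replicate 3 libraries). The leucine aminopeptidase Lap3 had a pattern like that of Ggct: 43.1 ± 3.63 TPM in media/CDDO-Me, 150 ± 11.8 TPM in WT CM/CDDO-Me, 134 ± 9.71 TPM in KEAP1 KO CM/CDDO-Me and 42.8 ± 10.1 TPM in NRF2 KO CM/CDDO-Me BMDMs (SD, n = 3). Its effect was 1.87 larger in WT CM than in media (SE 0.18, adjusted p = 1.94e-07).

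ATF4 targets, which include genes of amino acid and one-carbon supply, were not called higher with CDDO-Me in the fit with all libraries. Of 13 tested from 14, none rose in any medium, while 2 fell in media, 3 in WT CM, 7 in KEAP1 KO CM and 2 in NRF2 KO CM, beside 2.94%, 13.9%, 14.2% and 5.28% of all genes that fell. Their medians were -0.13, -0.18, -0.56 and -0.37. Leaving out both NRF2 KO CM replicate 3 libraries, 2 were called in NRF2 KO CM (9.97% of all genes) and 6 in WT CM (43.7%), 1 of the 6 higher. With the replicate number as a block 4 fell in NRF2 KO CM, beside 1068 of all 13661 genes. Phgdh, the first enzyme of serine synthesis, fell by 0.85 in WT CM (adjusted p = 0.00122) and by 1.35 in KEAP1 KO CM (adjusted p = 7.58e-06). With vehicle, 3 of the 13 were higher in WT CM than in media (Mthfd2, Psat1 and Asns; 7.34% of all genes called) and 2 in KEAP1 KO CM (Mthfd2 and Psat1; 7.96% of all genes called). The KEAP1 KO CM count was 4 when both NRF2 KO CM replicate 3 libraries were left out, where 21.8% of all genes were called. Mthfd2, a mitochondrial folate enzyme, differed by 1.12 in WT CM (adjusted p = 0.00302).

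Among 9 regulators, 0 were called with CDDO-Me in media by limma (3 at an unadjusted p under 0.05), 4 rose in WT CM, 5 in KEAP1 KO CM and 1 in NRF2 KO CM. Among all genes 3.07% rose in media, 13.9% in WT CM, 14.5% in KEAP1 KO CM and 4.5% in NRF2 KO CM, and the regulators' medians were 0.10, 0.51, 0.65 and 0.26. When both NRF2 KO CM replicate 3 libraries were left out, 4 rose in media, 6 in WT CM, 6 in KEAP1 KO CM and 2 in NRF2 KO CM. Of all 13562 genes, 1005, 3205, 3199 and 674 rose there in the same order. In that fit Atf4 fell in all 4 media (-0.24 to -0.40, adjusted p of 0.0409 or less), and Nfe2l2 fell in media (-0.64, adjusted p = 0.022) and WT CM (-0.61, adjusted p = 0.00973). With the replicate number as a block 1 rose in media and 2 in NRF2 KO CM, beside 743 and 919 of all 13661 genes. Nfe2l2, which encodes NRF2, was at 256 ± 22.4 TPM in media/vehicle and 162 ± 12.2 TPM in media/CDDO-Me BMDMs (log2 difference -0.65, SE 0.26, adjusted p = 0.189; SD, n = 3). Keap1, its inhibitor, rose by 0.81 in WT CM (adjusted p = 0.0038) and by 0.80 in KEAP1 KO CM (adjusted p = 0.00407). Mafk, a small MAF partner of NRF2, rose by 0.94 in WT CM (adjusted p = 1.28e-04) and 1.07 in KEAP1 KO CM (adjusted p = 2.89e-05), and Maff and the repressor Bach1 rose in both. Mafg rose in KEAP1 KO CM (0.79, adjusted p = 0.0252) and NRF2 KO CM (0.88, adjusted p = 0.0348, and 0.69 without both replicate 3 libraries). Atf4 was higher in WT CM than in media with vehicle (0.63, adjusted p = 0.0207). Bach2, a repressor related to Bach1, was called between a conditioned medium and media only in KEAP1 KO CM under CDDO-Me (-0.60, adjusted p = 0.0433). Nfe2l1, a relative of NRF2, was higher under CDDO-Me than in media in WT CM (0.45, adjusted p = 0.0127) and KEAP1 KO CM (0.49, adjusted p = 0.00882).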

How the data were processed

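Poly(A) RNA from 24 macrophage cultures was sequenced, and the authors quantified it with kallisto on GRCm39 transcripts. The deposited table is named for counts, but its values are TPM that the authors computed, summing to 999365 to 999801 per library over named genes. The line without a gene name (0.0199% to 0.0635%) was left out. The study's methods state only an average read depth. Because TPM keep no depth for each library, no count model was used.

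Genes with more than 1 TPM in at least 3 libraries were scaled by trimmed-mean factors (30% of ratios, 5% of levels trimmed), log2-transformed after adding 1, and fitted with limma 3.58.1 in R 4.3.3 with 8 group means, 16 residual degrees of freedom, a mean-variance trend and Benjamini-Hochberg adjustment over 13661 genes. The step was tested on simulated data. Effects of CDDO-Me were compared between media as interaction contrasts. Ratios and figures used pandas 2.3.3 and matplotlib 3.10.9.

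Same-numbered libraries deviated together (mean r of 0.256, over 0.1 in 71 of 84 pairs), and 22 of 24 libraries were closest to their own number. The mean r for other numbers, -0.121, is no separate evidence, because deviations within a group sum to 0. The labels number the replicates but do not say what a shared number stands for, so the pairing is read from the data. In the comparisons whose 3 pairs were all over 0.1, the value with the replicate block is given beside a result of the 10 genes or a count of a list where it changed the call, brought it to the threshold or moved the count by over 1.5 times. Some values with the block are also given for other comparisons. The alternatives were size factors by the median ratio (RLE), no scaling, other filters, pseudocounts of 0.1 and 5, no trend, array weights, the replicate block, only the groups compared, and fits without 1 library or without both NRF2 KO CM replicate 3 libraries (13562 genes, 14 residual degrees of freedom).

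The members and lists were chosen with earlier results of these data known. All members are named. From the other lists, genes were drawn from those with the smallest adjusted p in each comparison of drug with vehicle (up to 4) and of conditioned medium with media under vehicle (up to 3), and all regulators are named.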

Additional observations from a re-analysis of the deposited data

Results flagged for a closer look

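For 4 of the 10 genes the CDDO-Me effect differed between media in a test of the difference itself, the limma interaction term with Benjamini-Hochberg adjustment. Relative to media, the effect in WT CM was 0.90 larger for Slc3a2, 2.16 larger for Ggct, and differed by -1.44 for Gclc and -1.82 for Gss. Relative to media, the effect in KEAP1 KO CM was 0.91 larger for Slc3a2, 2.02 larger for Ggct, and differed by -1.21 for Gss. Relative to NRF2 KO CM, the differences in WT CM were -1.80 for Gclc, -2.17 for Gss and 2.26 for Ggct. Those in KEAP1 KO CM were -1.36 for Gclc, -1.56 for Gss and 2.12 for Ggct. With only the groups compared in the fit, those of Gclc (adjusted p = 0.154) and Gss (adjusted p = 0.0539) in KEAP1 KO CM were not called. Over all genes, 15% and 14.7% were called for WT CM and KEAP1 KO CM relative to media, and 13.3% and 12.7% relative to NRF2 KO CM. The comparisons share their media or NRF2 KO CM libraries.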

How the results depend on the processing

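Of 2065 repeated values of the 59 called gene-level differences, 2008 kept direction and side of the threshold, 57 kept direction only and 0 reversed. Counts of the 10 genes called that moved by over 1.5 times, or from 0, did so as follows, and the cause was not tested. For WT CM against media with vehicle the count of 0 became 1 without scaling, with the replicate block, without both NRF2 KO CM replicate 3 libraries or with only the groups compared, and 2 with array weights. For KEAP1 KO CM against media with vehicle, 0 became 4 with array weights, 1 with the block and 3 without both replicate 3 libraries. For WT CM against media under CDDO-Me, 5 became 8 with array weights or only the groups compared. For WT CM against NRF2 KO CM with vehicle, 0 became 1 without scaling, with a filter above 5 TPM, array weights, the block, or without both replicate 3 libraries. With array weights, 0 became 1 for KEAP1 KO CM against WT CM and against NRF2 KO CM with vehicle, and 3 for KEAP1 KO CM against WT CM under CDDO-Me. For KEAP1 KO CM against NRF2 KO CM under CDDO-Me, 5 became 3 with only the groups compared. For the CDDO-Me effect in KEAP1 KO CM minus media, 3 became 7 with array weights and 5 without both replicate 3 libraries or with only the groups compared. For WT CM minus NRF2 KO CM, 3 became 6 with array weights or the block and 5 without both replicate 3 libraries. For KEAP1 KO CM minus NRF2 KO CM, 3 became 5 with array weights or without both replicate 3 libraries and 1 with only the groups compared.

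Without 1 library at a time, the counts for CDDO-Me against vehicle ran from 5 to 6 in media, 5 to 7 in WT CM, 7 to 8 in KEAP1 KO CM and 6 to 6 in NRF2 KO CM. With vehicle they ran from 0 to 1 for WT CM against media (1 without replicate 3 of NRF2 KO CM/vehicle), 0 to 2 for WT CM against NRF2 KO CM (2 without replicate 1 or 2 of NRF2 KO CM/vehicle), 0 to 1 for KEAP1 KO CM against NRF2 KO CM (1 without the same libraries) and 0 to 0 for the others. Under CDDO-Me they ran from 4 to 6 for WT CM and 4 to 5 for KEAP1 KO CM against media, 5 to 7 and 4 to 5 against NRF2 KO CM, and 0 to 0 for NRF2 KO CM against media and KEAP1 KO CM against WT CM. Differences of the effect ran from 3 to 5 (WT CM) and 1 to 4 (KEAP1 KO CM; 1 without replicate 1 of media/vehicle or 3 of KEAP1 KO CM/CDDO-Me) relative to media, 3 to 4 and 2 to 4 relative to NRF2 KO CM, and 0 to 0 for the others.

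Smaller moves included CDDO-Me in WT CM, where 6 became 8 with array weights, the block, without both replicate 3 libraries or with only the groups compared, and CDDO-Me in NRF2 KO CM, where 6 became 4 with only the groups compared (Slc3a2, adjusted p = 0.155, and Gclc, adjusted p = 0.0695). The block lost none of the called values. It added calls too in comparisons whose 3 same-numbered pairs were not all over an r of 0.1. For CDDO-Me in WT CM, with r of 0.062, 0.334 and 0.373, it added Gclc (adjusted p = 0.0172) and Gpx1 (-0.27, adjusted p = 0.0264). It also added Gclc for the CDDO-Me effect in KEAP1 KO CM minus media (adjusted p = 0.0176). The depth of each library is not in the table, so what low counts limit cannot be stated.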
